A study of Mus musculus with 50 samples.

Results

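The 8 tumour libraries described here (T15, T16 and T22 to T27) were made from liver tumours of C3H/He mice that were fed the ALIOS diet and given the liver carcinogen DEN. They were compared with 11 libraries of non-tumour liver (N13 to N23) from C3H/He mice on the same diet without DEN. These 19 libraries are part of a series of 50, and were chosen by the diet, treatment and tissue type in their labels, not by any measured value. ALIOS is an obesity-inducing diet rich in trans fat and sugar, DEN (diethylnitrosamine) is a DNA-alkylating chemical used to start liver cancer in rodents, and C3H/He is an inbred strain prone to liver tumours. All 19 tissues were taken at 48 weeks, and RNA was sequenced from whole tissue with a RIN above 8.0. The dose and timing of DEN, and which mouse each tumour came from, are not given in the sources used here, so adjusted p-values measure the spread between these samples, which need not be separate animals. No non-tumour liver from a DEN-treated mouse was analysed here, so the tumour and the DEN treatment cannot be told apart in this comparison. The other groups used are 5 DEN tumours and 12 livers of the control diet, and 12 tumours that arose without DEN on the ALIOS diet.

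Hepatocytes divide their work along the path of the blood. Those near the portal vein carry the urea cycle and gluconeogenesis, and those near the central vein, where Wnt signals activate beta-catenin, make glutamine (Glul) and hold much of the cytochrome P450 system. Tumours started by DEN in C3H mice often carry activating mutations upstream of the MAPK cascade, which ERK feedback genes such as Dusp6 and Spry2 report, while tumours with active beta-catenin are known for high Glul, Axin2 and Lgr5. No mutation was called here, where only read counts were used. The study reports that Ras oncogene mutations were common in its tumours and were found in tumour tissue only. Those tumours are the ones that arose without DEN.

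Of 14434 genes tested, 3995 (27.7%) were higher and 2856 (19.8%) lower in the tumours at an adjusted p below 0.05 (edgeR quasi-likelihood test, Benjamini-Hochberg adjusted over all genes tested). These shares are the background against which each gene list below is read. Higher genes made up 58.3% of the calls with TMM factors, 54.4% with RLE and 58.2% with upper quartile factors, and 73.9% with no factors, where the median log2 difference over all genes was 0.21 in place of 0.08. The 2 groups did not overlap, every tumour being above every liver, for 624 genes (4.32%), and every tumour was below every liver for 696 genes (4.82%). Total counts were 27602194 to 34682875 in the livers and 28727716 to 45751398 in the tumours, a mean difference of 5088780 (exact permutation test, two-sided, p = 0.00482). Levels are CPM, counts scaled to the same library total with TMM factors, and are not per length, so they are compared between samples and not between genes. A gene enters the test when about 8 libraries hold enough reads, so a gene silent in liver enters through its tumour reads alone, and the list counts below are descriptions. The lists hold 821 distinct genes, of which 762 were tested.

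The tumours were not alike. On the first principal component, which held 74.0% of the variance of the 500 most variable genes, the livers lay between −45.7 and −16.8, T23 at −4.0, T25 at 14, T22 at 46.0 and the other tumours between 58.6 and 71.7. T24 stood apart on the second component, which held 11.1%. In T24, 145 genes lay above all 18 other libraries by more than 2 on the log2 scale and 200 lay below them. The next library was T16, with 1 and 20 genes. Without T24, 4327 of 14506 genes (29.8%) were higher and 3283 (22.6%) lower, and 6444 genes were called both with and without it. Results that turn on T24 are given with and without it. T24 was singled out because earlier results of these data showed a distinct beta-catenin target profile in it.

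**Figure D1:**
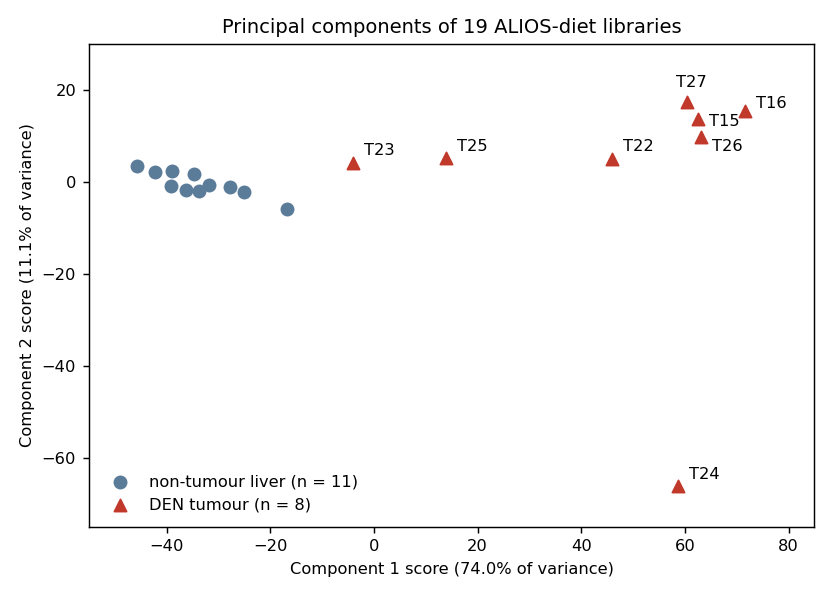
Position of the 11 livers and 8 tumours on the first 2 principal components of log2 CPM over the 500 most variable genes, with the share of variance on each axis. The livers lie at the left, T23 and T25 lie nearest to them, and T24 lies alone at the bottom.

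Fetal liver and tumour marker genes gave the largest rises. Of 22 genes on this list 18 were tested, 17 rose and none fell, with a median log2 difference of 4.46 (0.08 over all genes tested), and 9 had no overlap between the groups. Lin28b, Igf2bp1, Igf2bp3 and Hmga2 had too few reads to be tested, and Hk2, a hexokinase of glycolytic tumours, did not pass (log2 fold change 0.88 ± 0.53 SE, adjusted p = 0.18). Without T24 the count was the same, 17 of 18.

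Afp encodes alpha-fetoprotein, the main serum protein of fetal liver (chromosome 5, 90490737 to 90508907, plus strand, GRCm38). It ranged from 0.383 to 1.25 CPM in the livers (median 0.901) and reached 415 in T15, 375 in T16, 293 in T22, 19.8 in T23, 2575 in T24, 703 in T25, 374 in T26 and 345 in T27. Every tumour was above every liver, T23 being the lowest and T24 the highest tumour (log2 fold change 9.59 ± 0.67 SE, adjusted p = 8.1e-09; 8.77 without T24). Gpc3, a cell-surface glypican of fetal liver on the X chromosome, ranged from 0.128 to 1.04 CPM in the livers and from 7.06 in T23 to 818 in T24 (median 229; log2 fold change 8.91 ± 0.65 SE, adjusted p = 1.1e-08). Akr1c18, an aldo-keto reductase that inactivates progesterone (chromosome 13, 4132615 to 4150654), had a liver median of 0.699 CPM (0.256 to 1.89) and a tumour median of 282 (27.3 to 431). It had the smallest p of all genes that rose, with a log2 fold change of 8.40 ± 0.48 SE and an adjusted p of 1.3e-09. Igdcc4, a membrane protein of the DCC family, had a liver median of 0.152 CPM (highest 0.433) and a tumour median of 47.5 (lowest 2.59), a log2 difference of 7.74. The stem cell surface protein Prom1 and the Golgi protein Golm1 rose by 5.03 and 4.27 on the log2 scale. Golm1 shares exonic sequence with Naa35, whose reads could not be set apart. The lymphocyte surface antigen Ly6d rose from a liver median of 12.2 CPM to between 94.0 and 602 in the tumours.

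Genes outside the lists also went from near zero to clear expression. Gldn, gliomedin of peripheral nerve, was at 0 CPM in the median liver and at most 0.0999, and lay between 3.57 in T23 and 103 in T15 among the tumours. Erich4 (livers at most 0.113 CPM, tumours 2.30 to 46.0), Prom2 (at most 0.151, 1.38 to 75.1), Miox (at most 0.288, 1.95 to 32.9), Tg (at most 0.0348, 0.634 to 39.7) and Psrc1 (at most 0.320, 9.41 to 80.7) showed the same pattern, with T23, T24 or both among the lowest tumours for Prom2, Miox and Tg. Fitted fold changes of such genes depend on the prior count, so their levels are given instead. Several of the genes that fell with the smallest p had even changes across the tumours. Nampt, which recycles nicotinamide to NAD, had a liver median of 122 CPM (90.2 to 147) and a tumour median of 43.8 (37.0 to 59.0), a log2 difference of −1.38 ± 0.12 SE (adjusted p = 5.3e-08). Hpgd, which degrades prostaglandins, fell from a median of 119 CPM (89.9 to 138) to 31.3 (21 to 52.6). The mitochondrial carrier of aspartate and glutamate Slc25a13 fell by 1.20, the mitochondrial elongation factor Gfm1 by 0.83 and the choline phosphate enzyme Pcyt1a by 1.0 on the log2 scale, in each case with every tumour below every liver. Upp2, a liver uridine phosphorylase, fell by 4.54 on the log2 scale, from a median of 710 CPM (433 to 963) to 13 (3.55 to 84.8).

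Imprinted genes, several of which act in fetal growth, rose for the most part. Of 12 tested (20 listed), 7 rose and Ndn fell. H19, a long non-coding RNA of fetal liver, lay between 0.209 and 5.06 CPM in the livers, at 2.99 in T23 and between 10.7 and 189 in the other tumours (log2 fold change 5.28 ± 0.73 SE, adjusted p = 1e-05). Peg3 rose from a liver median of 3.17 CPM to between 12.4 and 187 in 7 tumours, and was at 0.248 in T24, below every liver. Igf2, the fetal growth factor, stayed low, with a liver median of 0.349 CPM and a tumour range of 0.529 to 3.03, although its rise of 1.71 on the log2 scale passed the test (adjusted p = 0.0013).

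The MAPK cascade feeds back on itself through phosphatases (Dusp6, Dusp5, Dusp4), Sprouty and Spred inhibitors and ETS factors (Etv4, Etv5). Of 18 such output genes tested, 12 rose and none fell, with a median log2 difference of 1.29. Dusp6, the ERK phosphatase, ranged from 22.5 to 45.8 CPM in the livers (median 30.3) and from 47.6 in T23 to 187 in T15 (median 132). All 8 tumours lay above all 11 livers (log2 fold change 1.98 ± 0.19 SE, adjusted p = 2.3e-07). Dusp5, which binds ERK in the nucleus, had a liver maximum of 0.932 CPM and tumour values from 1.96 in T23 to 28 in T15 (log2 fold change 4.94 ± 0.38 SE). Etv4 had a liver maximum of 0.366 CPM and a tumour range of 0.396 to 2.12. Spry2 and Spry1 rose by 2.24 and 2.01, and Egr1 by 2.85, on the log2 scale. Cyclin D1 (Ccnd1), the usual link from MAPK to the cell cycle, did not pass (livers 13.2 to 165 CPM, tumours 27.6 to 296, log2 fold change 0.95 ± 0.44 SE, adjusted p = 0.082), nor did Spry4, Myc, Phlda1, Etv1 and Epha2.

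Among EGF and FGF family ligands and receptors, with the hepatocyte growth factor pair, 6 of 14 tested rose and 1 fell. The rises were those of the ligands Hbegf, Tgfa, Btc, Egf and Fgf21 and of the receptor Fgfr2. In T24, however, Fgfr2 was at 0.36 in log2 CPM, below every other library, livers included (4.87 to 7.39). Hbegf, an EGF receptor ligand, rose from a liver median of 0.659 CPM (0.446 to 1.23) to a tumour range of 0.990 to 6.61, a log2 difference of 2.14 ± 0.32 SE (adjusted p = 2.3e-05). Tgfa, another ligand of that receptor, was at 13.4 to 20.1 CPM in the livers, at 19.5 in T23 and at 26.7 to 72.4 in the other 7 tumours (log2 difference 1.35). Met, the receptor of hepatocyte growth factor, was lower in every tumour (59.2 to 82.0 CPM) than in every liver (84.8 to 154), a log2 difference of −0.61 ± 0.11 SE. Egfr itself varied widely, from 20.5 CPM in T24 to 405 in T25 against 73.2 to 593 in the livers (adjusted p = 0.094).

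Genes of the G2 and M phases, which build the spindle and drive chromosome segregation, rose almost as a block. All 35 were tested, 34 rose, none fell and the median log2 difference was 2.71, and without T24 all 35 rose. Ccnf was the exception in the comparison with all tumours (0.35 ± 0.21 SE, adjusted p = 0.18). The median difference over the list, taken tumour by tumour against the liver median of each gene, ran from 0.81 in T23, 1.63 in T22 and 1.66 in T25 to 4.16 in T27. Mki67, the proliferation marker Ki-67, lay between 0.966 and 10.5 CPM in the livers (median 1.80), at 5.15 in T23 and between 13.2 and 57.7 in the other tumours (log2 fold change 2.99 ± 0.48 SE, adjusted p = 5.3e-05). Ccnb1, the mitotic cyclin B1, was at most 1.37 CPM in the livers and ranged from 1.19 in T23 to 18.3 in T27. Plk1, a mitotic kinase, was at most 0.599 CPM in the livers and from 0.793 to 8.46 in the tumours, with no overlap (log2 fold change 3.48 ± 0.45 SE).

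The promoters of such genes are known for a CCAAT box, bound by NF-Y, and a CHR element, bound by the DREAM and MuvB complexes that hold these genes off in resting cells. RefSeq promoters (GRCm38.p6, 250 bases before to 50 after the start) were found for 29 of the 35 genes and searched on both strands. A gene counted when any of its promoters held the letters, so a gene with several starts had more chances to match. The letters CCAAT were present in 75.9% of these genes and the CHR letters TTTGAA in 72.4%, and both in 62.1%. The shares among all 27025 genes with promoters of the same length were 41.1%, 20.2% and 7.97%. In the G1 and S list, 26 genes with promoters gave 65.4% with CCAAT and 19.2% with TTTGAA. These are matches of letters, not measured binding. The 120 bases before the start of 3 of the genes that rose, Top2a, Cdk1 and Cdc20, are shown because they hold both elements. They are written 5′ to 3′ on the strand of the gene, with each match to CCAAT or, as a second motif, to TTTGAA in capitals on either strand.
Top2a, chr11:99024190-99024309, minus strand: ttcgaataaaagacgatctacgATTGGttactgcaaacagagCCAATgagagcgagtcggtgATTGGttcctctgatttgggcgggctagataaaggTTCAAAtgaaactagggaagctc
Cdk1, chr10:69352913-69353032, minus strand: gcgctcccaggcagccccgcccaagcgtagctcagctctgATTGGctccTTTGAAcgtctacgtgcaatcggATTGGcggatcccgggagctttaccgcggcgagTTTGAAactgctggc
Cdc20, chr4:118437344-118437463, minus strand: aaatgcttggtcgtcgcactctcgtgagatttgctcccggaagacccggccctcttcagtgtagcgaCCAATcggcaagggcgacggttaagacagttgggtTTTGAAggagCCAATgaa

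Top2a, the topoisomerase of dividing cells, had a liver median of 1.72 CPM (0.418 to 7.06) and a tumour median of 10.1, from 2.35 in T23 to 29.8 in T27 (log2 fold change 2.13 ± 0.49 SE, adjusted p = 0.0016). Cdk1, the mitotic kinase, rose by 2.22 ± 0.47 SE, and Cdc20, which activates the anaphase-promoting complex, by 3.32 on the log2 scale.

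Genes of the G1 and S phases did not follow. Of 31 tested, 4 rose and 5 fell, and the median log2 difference was −0.05. Ccne1, cyclin E1, rose from 1.22 to 2.07 CPM in the livers to 2.11 to 12.9 in the tumours, with every tumour above every liver (log2 fold change 2.27 ± 0.26 SE, adjusted p = 1.3e-06), and Rrm2, a ribonucleotide reductase subunit, rose by 1.42. The replication helicase genes Mcm2 (0.79 ± 0.38 SE, adjusted p = 0.095) and Mcm5 (−0.21 ± 0.43 SE) did not pass, the Mcm2 livers spreading from 1.60 to 14.1 CPM. Pcna was lower by 0.42 (adjusted p = 0.046), Ccne2 by 1.17 and Tk1 by 1.92 on the log2 scale, the last with reads that Afmid on the other strand could share.

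Of 7 genes for inhibitors of cyclin-dependent kinases, 4 rose and none fell (3 without T24). Cdkn2b (p15) was at most 0.648 CPM in the livers and from 2.35 in T23 to 46.3 in T26 (log2 fold change 5.56 ± 0.42 SE, adjusted p = 1.8e-08). Cdkn2a, the locus of p16 and p19ARF, was at most 1.02 CPM in the livers and from 3.70 in T23 to 29.4 in T26. Cdkn1a (p21) had a liver median of 2.83 CPM (1.32 to 10.6) and tumour values from 43.8 in T25 to 126 in T16. In all 3 genes no tumour overlapped a liver. Cdkn2c also rose, by 1.11, and Cdkn1b, Cdkn1c and Cdkn2d did not pass.

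Cdkn1a is also a target of p53. Of 18 target genes tested, 15 rose and none fell (median log2 difference 1.63), and 8 had no overlap. Mdm2, which degrades p53 and is itself a p53 target, ranged from 18.3 to 26 CPM in the livers and from 36.4 in T24 to 105 in T26 (log2 fold change 1.44 ± 0.18 SE, adjusted p = 3.2e-06). Bax, a mediator of apoptosis, rose from 13.2 to 21.8 CPM to 29.4 to 56.1, and Phlda3, an inhibitor of AKT, from at most 1.33 CPM to 4.18 to 23.7 (log2 fold change 4.27 ± 0.37 SE). Fas, Perp and Bbc3 did not pass.

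**Figure D2:**
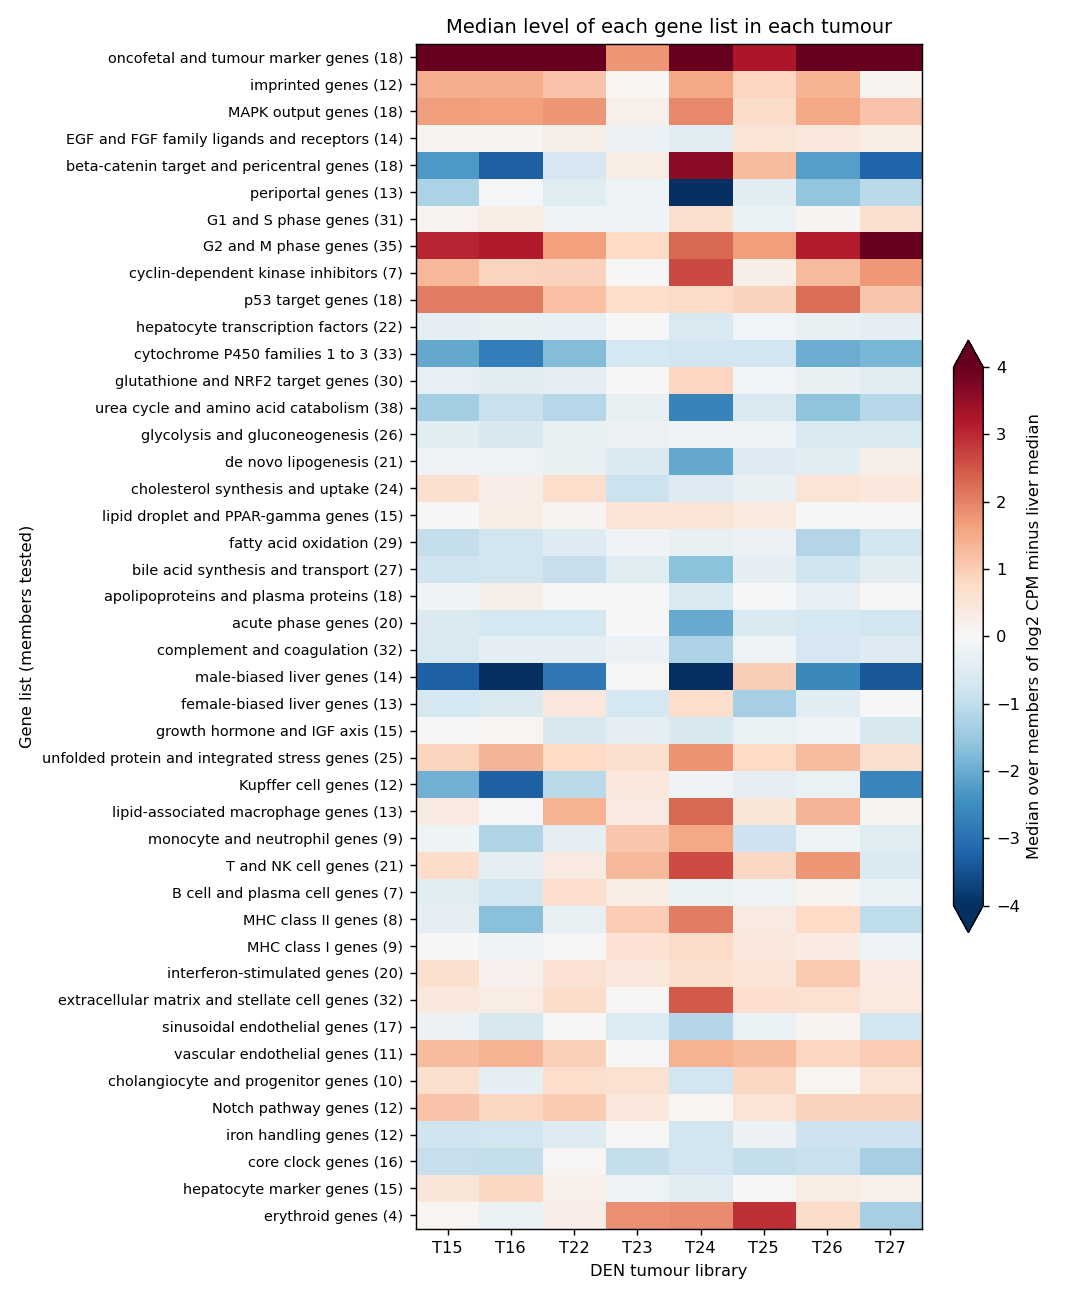
Median difference in log2 CPM from the liver median over the tested members of each gene list (rows), shown for each tumour (columns) on a colour scale in log2 units. For the oncofetal list T23 is lowest at 1.78, and in T24 the beta-catenin list stands at 3.61 and the periportal list at −6.58.

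Genes of the unfolded protein and integrated stress responses rose in 17 of 25 and fell in 2. Trib3, a pseudokinase induced by ATF4, rose from 2.0 to 5.01 CPM in the livers to at least 5.02 in every tumour, with a median of 27.3 (log2 fold change 3.17 ± 0.32 SE, adjusted p = 3.5e-07). The serine synthesis enzymes Phgdh and Psat1, also ATF4 targets, rose by 5.95 and 5.09. Phgdh was at most 0.566 CPM in the livers, at 0.317 in T23 and from 10.8 to 25.9 in the other tumours. Ddit3 (CHOP) was at 5.12 to 8.41 CPM in the livers, at 10.4 to 23.6 in 7 tumours and at 98.2 in T24. The ER chaperone Hspa5 (BiP) did not pass (0.42 ± 0.25 SE, adjusted p = 0.17) and Herpud1, an ER degradation gene, was lower by 0.72, while Shmt2, a mitochondrial serine enzyme, was lower by 0.80.

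Genes of amino acid and nitrogen metabolism fell in the tumours. Of 38 genes of the urea cycle and amino acid catabolism, 24 fell and 1 rose, with a median of −0.97 and 15 genes lower with no overlap, and without T24 28 fell. Ass1, which joins citrulline to aspartate, ranged from 1751 to 3274 CPM in the livers and from 37.6 in T24 to 1221 in T23 (log2 fold change −2.05 ± 0.38 SE, adjusted p = 0.00021). Cps1, the first enzyme of the cycle, was at 2254 to 4757 CPM in the livers, at 898 to 1546 in 7 tumours and at 3.47 in T24. Both were below every liver in all 8 tumours. Ahcy, which clears S-adenosylhomocysteine, fell by 2.31 ± 0.25 SE, the tumours at 62.0 to 258 CPM and the livers at 455 to 847. Glud1, glutamate dehydrogenase, was the one gene of the list that rose, from 819 to 942 CPM to 1029 to 1971, with every tumour above every liver (adjusted p = 3.6e-06).

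Of a list of 33 tested cytochrome P450 genes of families 1 to 3, 20 fell and none rose (26 fell without T24, 13 without TMM factors). The list does not hold every gene of these families, and Cyp2a4, counted with the female-biased genes, rose by 2.46. Cyp2c29, a retinoid and drug P450, was at 408 to 1757 CPM in the livers and from 2.98 in T16 to 650 in T24. Cyp2b10, the gene that the nuclear receptor CAR switches on, was at 0.805 to 4.77 CPM in the livers and at most 0.396 in any tumour (log2 fold change −3.70 ± 0.38 SE, adjusted p = 4e-07). CAR itself (Nr1i3) fell by 2.0, from 118 to 316 CPM to 7.32 to 162, although its reads may include Tomm40l. Cyp3a13 and the epoxygenase Cyp2c44 fell by 1.73 and 0.71. Cyp2a5 was at 12.6 to 351 CPM in 7 tumours, all below the livers (500 to 1080), and at 5234 in T24, so that its log2 difference was −0.05 with T24 and −2.82 without it (adjusted p = 0.00026).

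Of the hepatocyte transcription factors, 10 of 22 fell and 3 rose. Hnf4a, the master regulator of hepatocyte identity, did not pass (livers 337 to 533 CPM, tumours 289 to 553, log2 fold change 0.06 ± 0.12 SE). Cebpa, which maintains metabolic genes, fell by 0.73 ± 0.21 SE, and the nuclear receptors Nr1h4 (FXR), Nr1i2 (PXR) and Rxra by 1.06, 0.78 and 0.63. Rxra was the one factor with no overlap (200 to 327 CPM in the tumours against 351 to 489). Foxa3 and Gata6 were among those that rose, each by less than 0.50.

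Bile acid synthesis and transport genes fell in 13 of 27 and rose in 1. Cyp7a1, the rate-limiting enzyme of bile acid synthesis, was at 128 to 408 CPM in the livers and at 0.295 to 89.0 in the tumours, with no overlap (log2 fold change −2.91 ± 0.77 SE, adjusted p = 0.0044). Baat, which conjugates bile acids, and Slc10a1, which takes them up from blood, fell by 1.69 and 2.05 with every tumour below every liver. The exporter Abcc4 rose by 2.18, with 50.1 CPM in T24 and 1.69 to 6.12 in the other tumours (0.75 without T24, adjusted p = 0.018).

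Genes of glycolysis and gluconeogenesis rose in 6 and fell in 12 of 26. Pfkp, a phosphofructokinase of other tissues, was at 0.975 to 4.19 CPM in the livers, 3.99 in T23 and 4.57 to 64.1 in the other tumours (log2 fold change 3.40 ± 0.46 SE, adjusted p = 8.3e-06), with Pitrm1 overlapping it. Gbe1, the glycogen branching enzyme, fell from 139 to 192 CPM to 44.9 to 90.5, and pyruvate carboxylase (Pcx) and liver glycogen phosphorylase (Pygl) fell by 0.63 and 0.73, all with no overlap. Pkm, the muscle-type pyruvate kinase, was at 512 CPM in T24 and 17.3 to 82.0 in the other tumours (livers 10.3 to 32.8). Glutathione and NRF2 target genes gave 8 rises and 6 falls among 30 (7 and 12 without T24). Gclc, which limits glutathione synthesis, rose from 124 to 178 CPM to 210 to 479 in 7 tumours and was at 77.2 in T24, below every liver. Its partner Gclm fell in every tumour (108 to 162 CPM against 171 to 213), and Nqo1, a classical NRF2 target, did not pass (−0.26 ± 0.30 SE).

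Lipid genes were described by pathway. Of 21 lipogenesis genes 7 fell and 1 rose. Thrsp, a lipogenic protein induced by feeding, fell from 1158 to 3081 CPM to 35.2 to 612 (log2 fold change −3.28 ± 0.41 SE, adjusted p = 3.8e-06) and Dgat2, the last enzyme of triglyceride synthesis, by 1.16, each with no overlap. Fasn, Acly and Scd1 did not pass. Scd2, the desaturase of fetal liver, rose from 7.03 to 102 CPM in the livers to 40.9 in T23, 164 in T24, 281 in T25 and 744 to 957 in the other 5 tumours (log2 fold change 4.17 ± 0.56 SE). Fatty acid oxidation genes fell in 16 of 29 and rose in 3. The mitochondrial dehydrogenases Acadm and Hadh fell by 0.64 and 0.77, while the pantetheinase Vnn1 rose by 2.29. Without TMM factors 9 of these genes fell.

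Lipid droplet genes gave 6 rises and 3 falls among 15 tested. Plin2, the droplet coat protein, rose from 359 to 694 CPM in the livers to 657 in T23 and 741 to 1456 in the others (log2 fold change 1.05 ± 0.17 SE, adjusted p = 6e-05). Cidea, which fuses droplets, was at most 1.37 CPM in the livers and from 1.80 to 21.2 in the tumours (4.69 ± 0.60 SE), and Lpl, lipoprotein lipase, rose by 2.53. Pparg did not pass (−1.09 ± 0.64 SE, adjusted p = 0.17). Cholesterol genes gave 5 rises and 4 falls among 24. Hmgcs1, the first committed enzyme, was at 296 to 540 CPM in the livers, at 829 to 1296 in T15, T16, T22, T26 and T27, and at 294 to 319 in T23, T24 and T25. Lss, lanosterol synthase, was at 423 CPM or more in the same 5 tumours and at 59.7 to 135 in the other 3, against 101 to 187 in the livers.

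Genes for apolipoproteins and plasma proteins gave 6 rises and 5 falls among 18, and the hepatocyte marker list 5 and 5 among 15. Alb was at 47482 to 100270 CPM in the livers, 57660 in T23, 59054 in T24, 65785 in T25 and 138585 to 191441 in the other 5 tumours, which lay above every liver (log2 fold change 0.79 ± 0.28 SE, adjusted p = 0.026). The iron carrier Trf rose in every tumour (7058 to 14683 CPM against 3813 to 5770, adjusted p = 5.9e-06), and Apoa4 rose by 1.6. Acute phase genes fell in 12 of 20 and rose in 3, among them Lcn2 (1.96) and Cp (0.96). Saa1, serum amyloid, was at 139 to 2706 CPM in the livers, at 286 in T25, 821 in T23 and at 5.67 to 93.6 in the others. Complement and coagulation genes fell in 16 of 32, and Kng1 and Cfi rose. C9, a pore-forming complement protein, was at 0.637 CPM in T24 and at 211 to 729 in the other tumours (livers 595 to 1315). Iron genes fell in 6 of 12, led by the hepcidin genes. Hamp was at 217 to 1521 CPM in the livers, 578 in T23, 384 in T25 and 3.84 to 45.5 in the others.

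Male-biased genes of the liver, kept up by pulses of growth hormone, were near liver levels in T23 and T25 and low in the other tumours. Of 14, 4 fell and none rose, but 13 fell when T23 and T25 were left out, a choice made after their values were seen, and 1 fell without TMM factors. Mup3, a major urinary protein, was at 2420 to 5622 CPM in the livers, 4703 in T23, 5906 in T25, 3.40 in T24 and 53.2 to 941 in the others, though reads of the Mup family are shared between near-identical copies. Elovl3, a fatty acid elongase, was at 8.03 to 53.7 CPM in the livers, 277 in T23, 279 in T25 and 0.0354 to 13 in the others, the widest spread among tumours of any gene above 10 CPM (SD of 3.93 on the log2 scale, livers 0.89). Ugt2b1 was one that passed, at 317 to 798 CPM in the livers, 357 in T23, 477 in T25 and 14.5 to 70.0 in the others (log2 fold change −2.11 ± 0.56 SE, adjusted p = 0.0046). Female-biased genes gave 3 rises and 4 falls among 13, with Cyp17a1 rising by 3.39. In the growth hormone axis the receptor Ghr fell by 1.36 with no overlap and Igf1 by 1.44, while Igfbp1, which binds IGF1, rose from 5.42 to 56.6 CPM to 64.6 to 2881, also with no overlap (log2 fold change 5.23 ± 0.57 SE, adjusted p = 7.5e-07).

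**Figure D3:**
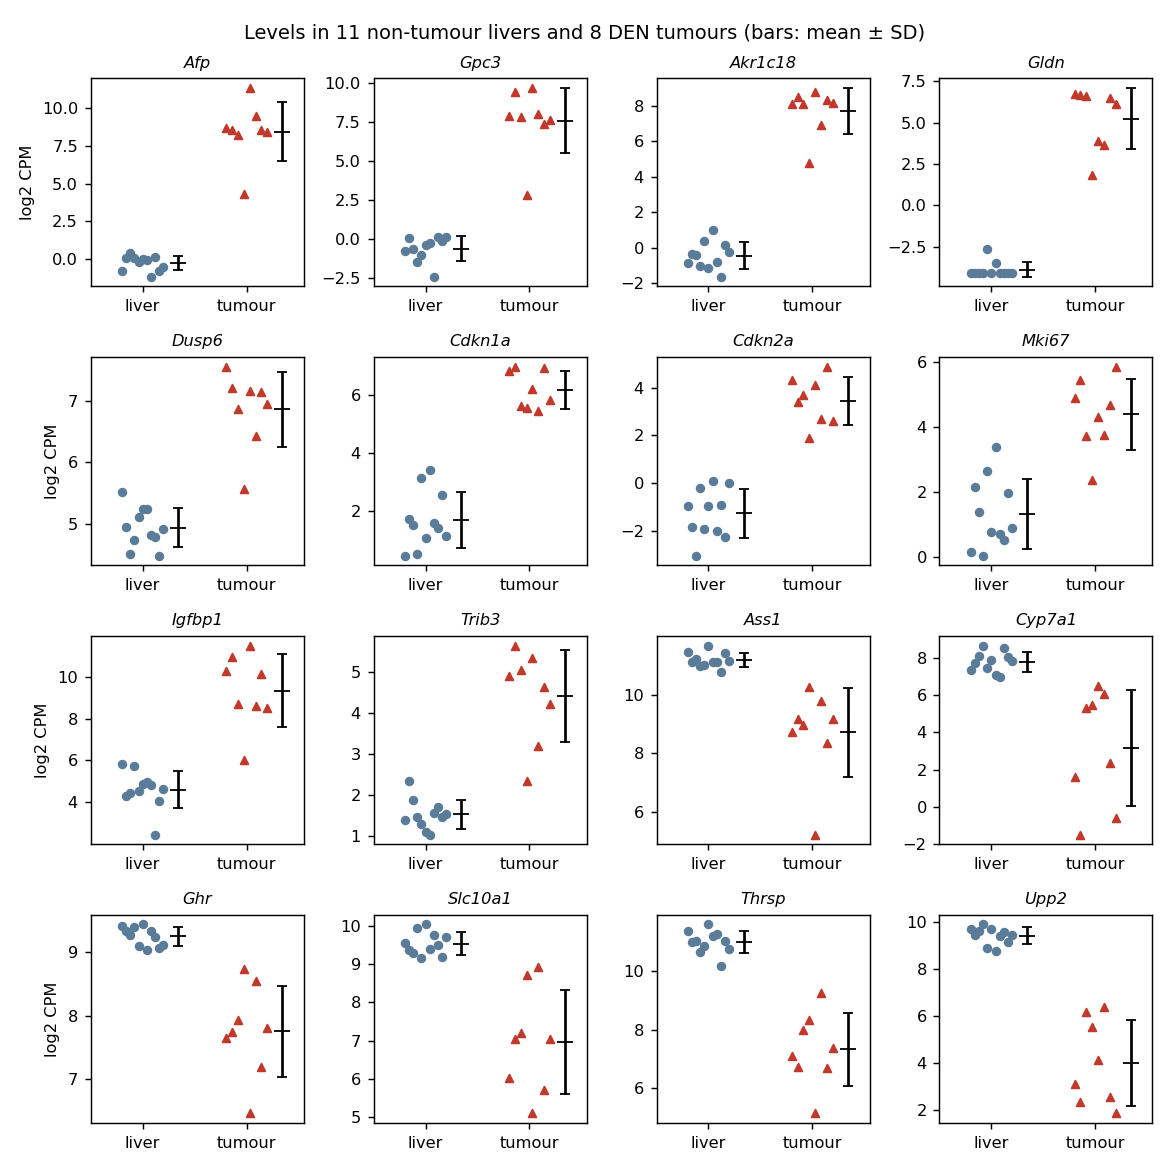
Levels of selected genes in each of the 11 livers and 8 tumours, as log2 CPM (vertical axis, its range set for each gene), with the group mean and SD as bars. Afp, Gpc3, Dusp6 and Cdkn1a are above the livers in all 8 tumours, while Ass1, Cyp7a1, Ghr and Upp2 are below them in all 8.

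Beta-catenin target and pericentral genes differed widely between tumours, with list medians from −3.27 in T16 to 3.61 in T24 on the log2 scale, and T24 decided the sign of several members. Because T24 was singled out by its beta-catenin targets, its values for these genes are a description and not a test. Of 18 tested, 6 rose and 1 fell with T24, and 1 rose and 4 fell without it. Glul, glutamine synthetase of the hepatocytes around the central vein, was at 514 to 1287 CPM in the livers (median 962). It was at 24.6 in T16, 55.8 in T15, 65.6 in T27, 87.4 in T26, 570 in T22, 779 in T23, 2426 in T25 and 17505 in T24. T15, T16, T26 and T27 were thus below every liver, T22 and T23 within the liver range and T24 and T25 above it, and the group difference did not pass (1.51 ± 0.88 SE with T24, adjusted p = 0.16, and −0.72 without it, adjusted p = 0.37). Axin2, a direct target and inhibitor of the pathway, followed the same order at the extremes, from 0.426 CPM in T16 to 9.91 in T23, 13.3 in T25 and 103 in T24, against 3.23 to 5.37 in the livers. Nkd1, another feedback inhibitor, was at 296 CPM in T24, 7.37 in T23, 6.04 in T25 and 0.394 to 2.10 in the others (livers 2.0 to 4.41). Lgr5, the R-spondin receptor, was at 43.8 CPM in T24 and 13 in T25, and the ammonium transporter Rhbg at 180 and 11.3 (livers at most 5.01 and 6.30). The log2 difference of Axin2 was 1.92 (adjusted p = 0.045) with T24 and −0.07 without it, and that of Nkd1 3.87 (adjusted p = 0.0046) and −0.03. Tcf7, a TCF family factor, was the one member above every liver in all 8 tumours (3.41 to 49.3 CPM against 1.39 to 2.91) and rose also without T24, by 0.98.

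The P450 genes of the pericentral zone did not follow Glul in every tumour. Cyp2e1, which activates DEN, was at 3270 to 8143 CPM in the livers and at 5959 in T24, 2648 in T25, 2497 in T23, 1128 in T22 and 41.0 to 261 in the other 4 (log2 fold change −1.83 ± 0.68 SE, adjusted p = 0.034; −2.54 without T24, adjusted p = 0.0038). Cyp1a2 was at 618 CPM in T24, within the liver range of 244 to 759, at 188 to 252 in T23 and T25 and at 1.21 to 13.4 in T15, T16, T26 and T27.

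Periportal genes were lower in 6 of 13 tested, and 1 rose, with T24 lowest by far. Cyp2f2, the periportal P450, was at 382 to 1093 CPM in the livers, 428 in T23, 589 in T25, 23.2 to 52.4 in 5 tumours and 0.248 in T24 (log2 fold change −2.23 ± 0.78 SE, adjusted p = 0.024). Sds and Gls2, which degrade serine and glutamine, were at 0.106 and 0.567 CPM in T24 and at 16.7 to 163 and 93.1 to 212 in the other tumours. Pck1, the gluconeogenic enzyme, was at 3.20 CPM in T24, and Hal, which degrades histidine, at 4.11 against 102 to 229 in the other tumours and 89.9 to 177 in the livers. Cdh1, E-cadherin, was the member that rose, from 5.92 to 22.5 CPM in the livers to 27.2 to 248 (3.46 ± 0.39 SE, adjusted p = 1e-06). Letters of the TCF site (CTTTGA, both strands, a motif that overlaps TTTGAA) were searched in promoters and counted by gene. They were found for 46.2% of the 13 beta-catenin list genes matched, 42.9% of the 7 periportal ones and 18.2% of all genes.

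**Figure D4:**
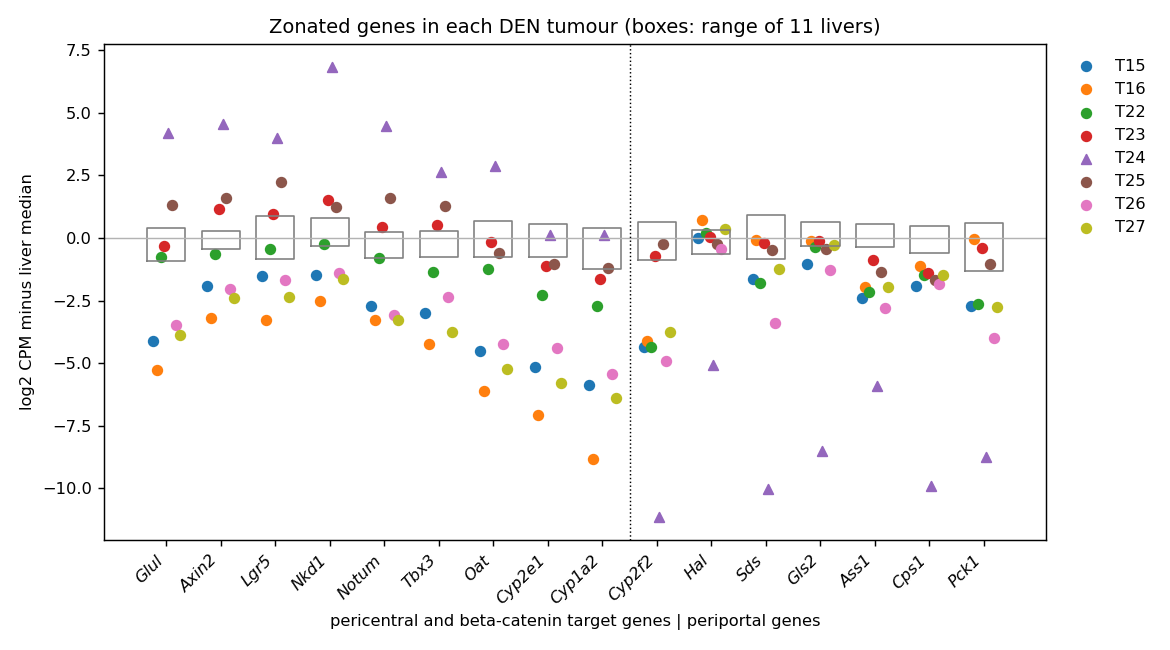
Level of pericentral and periportal genes in each tumour as log2 CPM minus the liver median, with 1 colour per tumour, a triangle for T24 and a box for the range of the 11 livers. T24 is above the box for Glul, Axin2 and Nkd1 and below it for Cps1, Cyp2f2 and Sds, while T15, T16, T26 and T27 are below it for Glul and Cyp2e1.

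Cells other than hepatocytes were read from their marker genes. In whole tissue, fewer cells of a type and less RNA per cell cannot be told apart. Kupffer cell markers, those of the resident liver macrophage, fell in 3 of 12 (7 without T24, 1 without TMM factors), their summed level being 467 to 1431 CPM in the livers and 121 to 924 in the tumours. Clec4f, which defines the cell, was at 84.4 to 206 CPM in the livers, 165 in T23, 101 in T25 and 1.15 to 70.9 in the others (log2 fold change −1.32 ± 0.55 SE, adjusted p = 0.056). Genes of lipid-associated macrophages rose in 6 of 13 and fell in none, led by Cd9, Cd63 and Lpl, with a median log2 difference of 0.79. Without T24 4 rose and 2 fell, with a median of 0.31, a share of rises near the 29.8% of all genes tested. The markers that define that cell did not pass, Trem2 lying at 14.3 CPM in T24, 0.463 to 1.67 in the other tumours and 0.232 to 5.66 in the livers, and Gpnmb at 23.1 in T24. Monocyte and neutrophil markers (9 tested) and MHC class II genes (8 tested) gave no call by edgeR with TMM or any other factors tried, nor by DESeq2, at an adjusted p below 0.05. Without T24 1 gene of these 17, Lyz2, fell. The summed MHC class II level was highest in T24 (1002 CPM, livers 28.4 to 558).

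T and NK cell markers rose in 5 of 21 (2 without T24), shares below those of all genes tested (27.7%, and 29.8% without T24). B cell markers rose in none of 7, of which Ighm fell by 1.49. Prf1, perforin of cytotoxic cells, was at most 0.639 CPM in the livers and 0.319 to 2.74 in the tumours (log2 fold change 2.22 ± 0.56 SE, adjusted p = 0.0029). Cd3e and Cd8a did not pass (0.54 and 1.05). Interferon-stimulated genes rose in 11 of 20, by 0.41 to 1.62, with Ifi44 at 7.21 to 17.5 CPM in the livers and 12.1 to 43.8 in the tumours. Tap1, which loads MHC class I, rose by 0.78 (reads shared with Psmb9) and Nlrc5, the class I activator, by 1.11, while H2-K1 and B2m did not pass.

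Matrix and stellate cell genes rose in 14 of 32 and fell in 5 (10 and 5 without T24). Without T24 the share of rises was near the 29.8% of all genes tested, and that of falls was below the 22.6%. Sparc, a matrix protein, was at 41.6 to 129 CPM in the livers, 77.8 in T23 and 322 to 812 in the other tumours (log2 fold change 3.10 ± 0.31 SE, adjusted p = 2.9e-07). Col1a1, the main collagen of fibrosis, was at 472 CPM in T24, 2.43 to 14.1 in the other tumours and 0.453 to 29.7 in the livers, so its log2 difference of 3.48 (adjusted p = 0.0078) became 0.67 without T24 (adjusted p = 0.41). The basement membrane collagens Col4a1 and Col4a2, which overlap each other, rose by 1.63 and 1.75. Lrat, with which stellate cells store retinol, fell by 1.79 and the proteoglycan gene Dcn by 1.53, with every tumour below every liver.

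Sinusoidal markers fell in 6 of 17 and rose in 3, and vascular markers rose in 8 of 11. Esm1, made by sprouting endothelium, was at 0.208 to 3.46 CPM in the livers, 0.555 in T23, 4.82 in T25 and 14.8 to 31.3 in the others (log2 fold change 3.60 ± 0.58 SE, adjusted p = 5e-05), and Cd34 rose by 2.27. The sinusoidal lectin Clec4g fell by 0.95 and Ehd3 by 0.78, while Stab2 did not pass and Lyve1 rose by 0.99. Notch pathway genes rose in 8 of 12, with Hes1 at 6.22 to 11.5 CPM in the livers, 8.78 in T24 and 19 to 34.1 in the others. Of 10 cholangiocyte and progenitor genes 5 rose, but Krt19, which defines bile duct cells, was at 59.9 CPM in T24 and 0 to 1.69 in the other tumours, and Krt7 and Epcam did not pass.

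Tissues that lie beside the liver were read in the same way, and none of their markers had enough reads to be tested. Pancreas markers summed to at most 0.266 CPM and adipocyte markers to at most 0.127 CPM in any of the 19 libraries. Kidney markers summed to 0 to 5.81 CPM in the livers and 0.0354 to 16.4 in the tumours, and in the tumours 1 gene, Slc12a1, held up to 625 reads while the other 6 held at most 2. Red cell genes summed to 165 to 317 CPM in the livers, 1001 in T25, 484 in T23, 455 in T24 and 58.7 at the lowest tumour, and 3 globin genes rose (Hba-a1 by 1.40) while Alas2 fell. Without T23 and T25 none of the globin genes passed. The part of red cells in the other values of T23, T24 and T25 was not tested.

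Genes of the circadian clock moved with the groups, 4 rising and 8 falling among 16. Arntl, the core activator BMAL1, was at 1.08 to 2.67 CPM in the livers, 1.54 in T22, 0.921 in T24 and 11.5 to 33.4 in the other 6 tumours (log2 fold change 3.05 ± 0.47 SE, adjusted p = 3.6e-05). Npas2 followed, at most 0.604 CPM in the livers, 0.690 in T22, 0.584 in T24 and 3.72 to 19.1 in the others, and its partner Clock rose by 0.98. The output genes Tef and Hlf fell by 1.52 and 0.98, and Dbp by 1.17, with T22 at 176 CPM above all livers (84.2 to 143). The hour of collection is not given in the sources used here, and its part in these and other rhythmic genes was not tested.

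The same comparison on the control diet, which shares no sample with this one, called 4017 of 14731 genes higher (27.3%) and 3601 lower (24.4%). Of 14252 genes tested in both, 6780 were called here and 7394 with the control feed, and 4934 were called in both with the same direction, which is 72.8% of the ALIOS calls and 66.7% of the control calls. Called with opposite directions were 35 genes. Afp, Gpc3 and Akr1c18 rose on the control diet by 8.64, 8.36 and 10.10 on the log2 scale, Dusp6 by 2.24, Cdkn1a by 4.98 and Mki67 by 3.67, and none of these 6 passed the test of a difference between the diets. The G2 and M list gave 34 rises of 35 there too, and the p53 list 15 of 18 with 1 fall. Other lists gave unlike counts. G1 and S genes rose in 17 of 31 and fell in 3 there, against 4 and 5 here. Matrix genes rose in 26 of 32 and fell in 2, against 14 and 5 here. Lipid-associated macrophage genes rose in 11 of 13, against 6 here, with no fall on either diet. Interferon-stimulated genes rose in 2 of 20 and fell in 2, against 11 rises and no fall here. These counts were not tested against each other. Gene by gene, the interaction test described next called no interferon-stimulated and no matrix gene. Without T24 it called 1 interferon gene, more positive on the ALIOS diet, and 5 matrix genes, more negative. In the G1 and S list and the lipid-associated macrophage list it called 3 genes each (6 and 5 without T24), all more negative. The interferon list medians were 0.60 here and 0.40 on the control diet.

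The difference of the tumour effect between the diets was tested directly, as an interaction over 36 libraries. It called 162 of 15606 genes (1.04%) with a more positive log2 difference on the ALIOS diet and 192 (1.23%) with a more negative one. The sign is kept, so a more positive difference can be a weaker fall. Of 18 beta-catenin genes, 7 were among the more positive, and 2 without T24. Glul fell by 3.27 on the control diet and its difference between diets was 4.81 (adjusted p = 0.025), and that of Axin2 was 4.24 (adjusted p = 0.029). Without T24, which is 1 of the 8 tumours behind both, their differences were 2.51 (adjusted p = 0.056) and 2.19 (adjusted p = 0.062). The interaction without T24 called 732 genes in all, 329 more positive and 403 more negative on the ALIOS diet. Cidec, a droplet fusion protein, rose by 5.66 on the control diet and by 1.73 here (difference −3.93 ± 0.71 SE, adjusted p = 0.0063), and Ly6d by 7.59 and 4.43 (adjusted p = 0.016). The ALIOS livers were themselves spread for Cidec, from 0.622 to 25.1 CPM. Ccnd1 rose by 3.12 on the control diet (difference −2.15, adjusted p = 0.026) and Mcm5 by 1.87 (−2.07, adjusted p = 0.034). Arntl differed by 5.06 (adjusted p = 0.011) and Npas2 by 7.34 (adjusted p = 0.0074). Trim2, a ubiquitin ligase, rose by 1.71 here, from 10.5 to 17.2 CPM to 30.8 to 64.0, and by 0.24 on the control diet (difference 1.47 ± 0.27 SE, adjusted p = 0.0063).

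**Figure D5:**
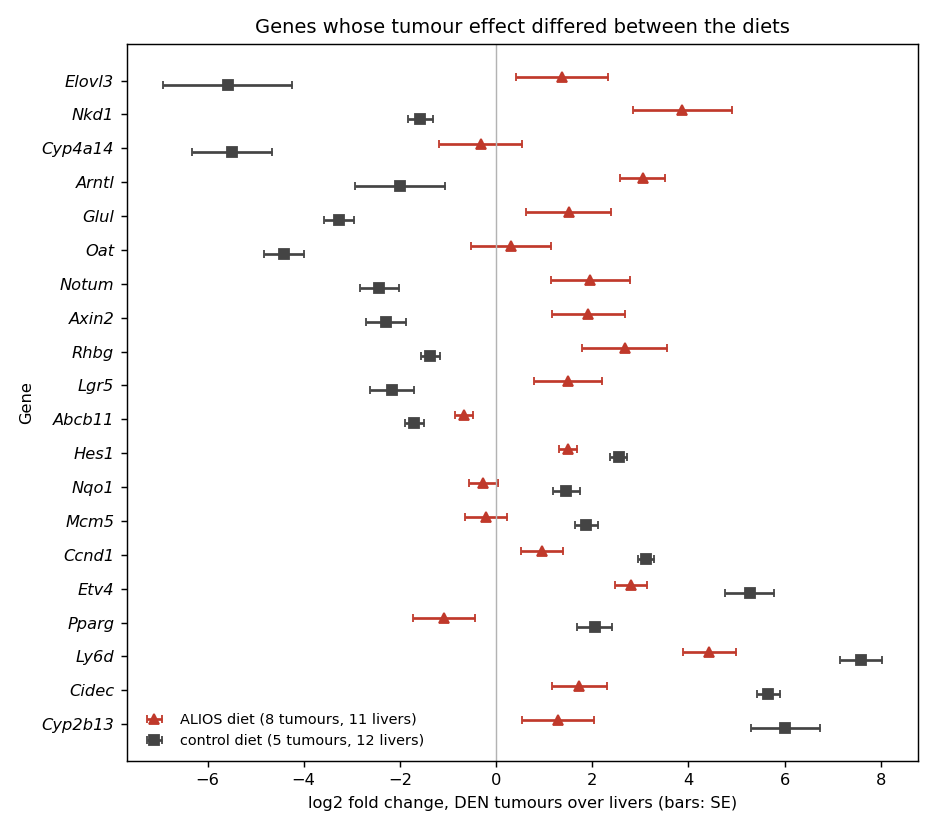
Log2 fold change of DEN tumours over livers with its SE on the ALIOS diet (8 tumours, 11 livers) and the control diet (5 tumours, 12 livers) for core list genes whose effect differed between the diets. With T24 included, Elovl3, Nkd1 and Glul lie further right on the ALIOS diet, while Cidec, Ly6d and Cyp2b13 lie further right on the control diet.

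Against the 12 tumours that arose without DEN on the same diet, no gene of 14845 (0%) differed by edgeR at an adjusted p below 0.05. In the study's own clustering T6, which is among these 12, fell with non-tumour livers, and the comparison was not run without it. At an unadjusted p below 0.05, 641 genes were higher and 438 lower in the DEN tumours, and DESeq2 called 86 genes. Afp was higher in the DEN tumours by 1.38 ± 0.70 SE (adjusted p = 0.74) and Gpc3 by 1.26 ± 0.69 SE (adjusted p = 0.80), while Akr1c18 differed by 0.33 ± 0.55 SE. A missed threshold does not show that these tumours were alike.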

How the data were processed

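RNA of 50 mouse liver and tumour samples was sequenced, and the authors deposited whole-number read counts for 45792 genes. Per the labels and the study's methods, reads were aligned to mm10 with STAR in 2 passes and counted over exons with HTSeq (intersection-nonempty) on Gencode M6. Whether counting used strand is not given in the sources used here, so overlapping genes may share reads. The 19 ALIOS-diet libraries were fitted with edgeR 4.0.16 in R 4.3.3 (filterByExpr, TMM factors, quasi-likelihood F test, Benjamini-Hochberg adjustment), without covariates, and an adjusted p below 0.05 was called. The tumour effect was compared between diets by an interaction term, and DEN tumours were compared with tumours that arose without DEN in a fit of their own. One tumour without DEN, T1, was left out because earlier results of these data showed kidney transcripts in it; with it the count of calls was also 0. Alternatives were DESeq2 1.42.0, other factors, filters and left-out libraries.

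The gene lists, the alternatives and the libraries singled out were chosen with earlier results of these data known. Genes were named by rule: core members of each list, the 3 called members of each list and direction with the smallest p, the 10 genes in each direction with the smallest p and the 10 with the largest fold change at a mean of at least 1 CPM in the higher group, the 5 in each direction with the smallest p for the diet difference, and the 10 with the largest SD among tumours at a mean of at least 10 CPM. A few list genes are counted within their lists but are left out of the search for tumours far from the others, the count of core genes that differ between the diets and the plot of them, and are not reported here. Further list members are given with their log2 fold change only. Of 877 list entries, 63 in the table did not pass the filter. Library pairs were checked for duplicates by a chi-square test on genes with at least 20 counts, and none agreed within sampling noise. Depth was 27602194 to 45751398 counts per library, and the precision of low genes is limited by it. Coordinates are those of Gencode M21 (GRCm38, the same assembly as mm10), and promoters those of RefSeq on GRCm38.p6. The scripts were tested on simulated data.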

Additional observations from a re-analysis of the deposited data

Results flagged for a closer look

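In 34 of 165 core list genes searched, 1 of the 8 tumours lay far from the other 7 in log2 CPM by Dixon's ratio at the 95% level. About 8.2 would be flagged if values were normal and the genes had been chosen without these data. T24 and the core genes were chosen with earlier results of these data known, so the 34 flagged genes are a description and not a test. T24 was the highest tumour in 11 of these, at 8.88 for Col1a1, 8.02 for Col3a1, 6.59 for Cd44, 3.84 for Trem2, 7.84 for Lyz2, 6.62 for Ddit3, 8.21 for Nkd1, 9.0 for Pkm, 5.65 for Abcc4, 5.82 for Cd24a and 9.01 for Cyp4a10. T24 was the lowest tumour in 18. Among zonated and amino acid genes it stood at 1.82 for Cps1, 5.23 for Ass1, 5.78 for Arg1, 2.06 for Hal, −2.59 for Sds, −0.67 for Gls2, −1.70 for Cyp2f2 and 1.71 for Pck1. Among lipid genes it stood at 8.89 for Fasn and 11.4 for Scd1. The others were Sox9 at −2.44, Hes1 at 3.14, Peg3 at −1.70, Nqo1 at 0.56, Gclc at 6.27, Igf1 at 3.71, C9 at −0.52 and Stab2 at 4.14. T23 was the lowest tumour for Afp (4.31), Gpc3 (2.83), Cd34 (0.091) and Esm1 (−0.70), and T25 for Pparg (−0.52).

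The tumour effect differed between the diets for 20 core genes by the interaction test (log2 effect on the ALIOS diet minus that on the control diet, adjusted p below 0.05). Beta-catenin and pericentral genes had more positive effects on the ALIOS diet, by 4.81 for Glul, 4.24 for Axin2, 3.68 for Lgr5, 5.49 for Nkd1, 4.41 for Notum, 4.74 for Oat and 4.07 for Rhbg. On the control diet 14 of the 18 tested genes of this list fell and 1 rose. The differences rest in large part on T24. Without it they were 2.51 for Glul (adjusted p = 0.056), 2.19 for Axin2 (0.062), 2.27 for Lgr5 (0.080), 1.52 for Nkd1 (0.10), 2.18 for Notum (0.079) and 1.12 for Rhbg (0.25), none of them past the threshold, and 2.72 for Oat, which passed (0.040). The log2 fold change on the ALIOS diet went without T24 from 3.87 to −0.03 for Nkd1, from 0.31 to −1.66 for Oat and from 2.67 to −0.22 for Rhbg. Elovl3 differed by 6.93, Cyp4a14 by 5.20 (2.78 without T24, adjusted p = 0.10), Arntl by 5.06 and Abcb11 by 1.02. Differences were negative, the effect being less positive or more negative on the ALIOS diet, at −3.93 for Cidec, −3.13 for Pparg, −3.15 for Ly6d, −4.73 for Cyp2b13, −2.15 for Ccnd1, −2.07 for Mcm5, −2.46 for Etv4, −1.72 for Nqo1 and −1.05 for Hes1. T24 was far below the other tumours for Nqo1 and Hes1 (0.56 and 3.14 in log2 CPM), and their differences without it are not given.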

How the results depend on the processing

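The count of 6851 called genes lay between 5509 and 9477 under other filters, factors, DESeq2, a fit of all 6 groups and left-out libraries, and between 6270 and 7610 when 1 library was left out. Requiring a change of more than 2-fold left 875 genes (697 higher, 178 lower), or 877 without T24. The diet difference of 354 genes became 732 without T24 and 646 by DESeq2, and the comparison with tumours that arose without DEN went from 0 genes to 86 by DESeq2. Some genes changed sign by DESeq2 and without T24 respectively: Axin2 from 1.92 to −0.13 and −0.074, Cyp4a10 from 0.31 to −1.72 and −1.96, Krt19 from 2.60 to −1.14 and −1.22, Nkd1 from 3.87 to −0.086 and −0.027, Oat from 0.31 to −1.47 and −1.66, and Rhbg from 2.67 to −0.26 and −0.22. Cd68 went from 0.01 to −0.70 without T24. DESeq2 replaced outlying counts in 476 genes, in 419 of them that of T24. Of 353 named genes, 332 kept direction and call by DESeq2, 324 without T24 and 334 without factors. No paired analysis was possible because the running numbers of livers and tumours name samples and do not pair them.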
